A study of Mus musculus with 5 samples.

Results

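H3K4me3 peaks that also carried H3K4me1, but neither H3K27ac nor H3K27me3, were examined in the mouse epiblast stem cell line EpiSC9, cultured on irradiated MEF feeders in medium with 10 ng/ml FGF2. They are called H3K27-unmarked peaks here. They were selected on measured values, namely the overlaps of the 4 deposited peak lists. An H3K4me3 peak on chromosomes 1 to 19 qualified when it shared at least 1 bp with an H3K4me1 peak and none with an H3K27ac or H3K27me3 peak, after the 500 widest H3K4me3 peaks were left out. The rule gave 7226 peaks of 28941 on the whole H3K4me3 list, and of 27470 on these chromosomes outside the widest 500 (26.3%). Each mark came from 1 chromatin immunoprecipitation of 5000000 crosslinked cells with 1 sequenced library, an input library was not used here, and all groups below are classes of peaks within the same untreated cells. With no replicate there is no spread between cultures, so no test was run and every difference is a description of these libraries. Shares are given with 95% Wilson intervals, which reflect the number of peaks counted and nothing else.

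H3K4me3 is deposited by COMPASS-family methyltransferases, mostly at CpG-rich promoters, and H3K4me1 lies at enhancers and on the shoulders of promoters. H3K27 can carry acetyl groups, found at active promoters and enhancers, or methyl groups placed by Polycomb repressive complexes, and the same lysine cannot carry both. Epiblast stem cells represent primed pluripotency, in which H3K4me3 together with H3K27me3 (bivalent chromatin) is known at many developmental genes. A promoter-type mark with H3K4me1 and no listed H3K27 mark belongs to neither the acetylated nor the bivalent state. A mark that is absent from a list was not called there, which does not show that it is absent from the chromatin, since the sequencing depth of the libraries is unknown.

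Of the other H3K4me3 peaks on these chromosomes, 11949 (43.5%) carried H3K4me1 and H3K27ac without H3K27me3 and are called acetylated peaks. Another 4015 (14.6%) carried H3K4me1 and H3K27me3 without H3K27ac and are called bivalent peaks, and 2510 (9.14%) touched no other mark and are called solitary peaks. The remaining combinations were 1257 peaks with H3K27ac but no H3K4me1, 305 with H3K27me3 but no H3K4me1, 198 with H3K4me1 and both H3K27 marks, and 10 with both H3K27 marks alone. The class that is described here was thus the second largest, after the acetylated peaks.

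H3K27-unmarked peaks were narrower and scored lower than acetylated and bivalent peaks, and were wider than solitary ones. Their median width was 615.5 bp (interquartile range 368.2 to 1098, overall 160 to 3287 bp). The median width was 1339 bp for acetylated, 1244 bp for bivalent and 310 bp for solitary peaks. The score of a peak is the authors' own and ranks peaks within the H3K4me3 list. Many scores stop at about 3100, and the order at or above that value is uncertain. The median score of H3K27-unmarked peaks was 272 (interquartile range 93.21 to 1108), against 2768, 957 and 74.33 for acetylated, bivalent and solitary peaks. A score of 3100 or more was reached by 438 H3K27-unmarked peaks (6.06%, 5.53 to 6.64), against 46.3% of acetylated, 10% of bivalent and 0.637% of solitary peaks. At the other end, 1942 H3K27-unmarked peaks (26.9%, 25.9 to 27.9) scored under 100, against 9.21% of acetylated, 12.8% of bivalent and 61.8% of solitary peaks, and 19.7% of all H3K4me3 peaks. A wide interval has more room to meet another mark, so width and score are tied to the rule.

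**Figure D1:**
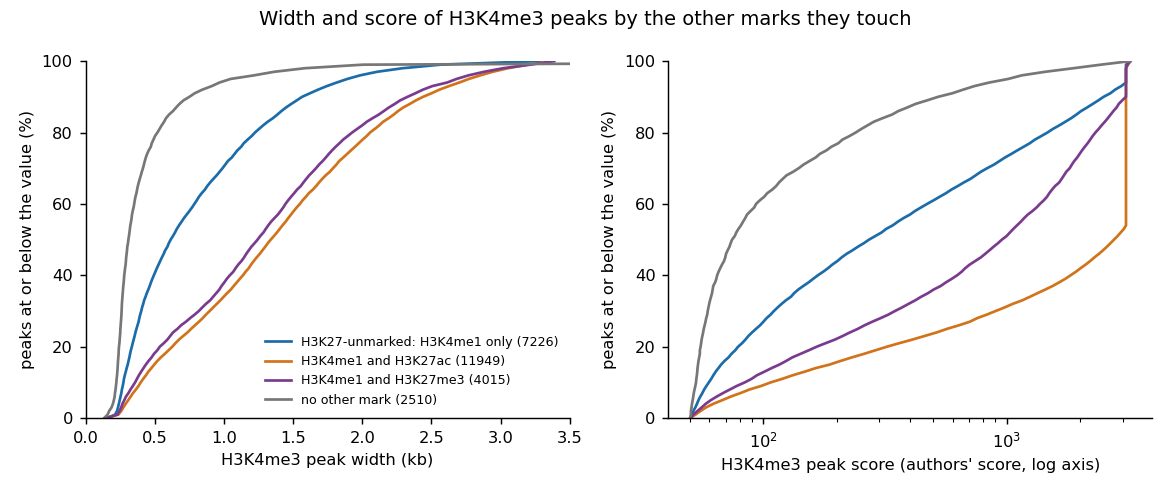
Cumulative share of H3K4me3 peaks (vertical axes, %) by width in kb (left) and by the authors' score on a log axis (right), for the 4 classes of chromosomes 1 to 19 outside the widest 500, with the number of peaks in brackets. H3K27-unmarked peaks lie between solitary peaks and the other classes, with medians of 615.5 bp and 272, and the vertical step at the right is the score at which many peaks stop.

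At matched widths between 500 and 2000 bp, the median score of H3K27-unmarked peaks stood above that of bivalent peaks and below that of acetylated ones. These width ranges were set after the data were seen. Among peaks of 1000 to 1500 bp, the median score was 1337 for 1288 H3K27-unmarked peaks, 1032 for 992 bivalent peaks and 2717 for 2833 acetylated peaks. Among peaks under 300 bp the medians were 58.62, 58.34 and 58.17, close to the lowest score in the list, 50.01. The share of H3K4me3 peaks that were H3K27-unmarked was 32.1% for widths under 300 bp, 39.5% for 300 to 500 bp, 23.4% for 1000 to 1500 bp and 7.82% for 2000 to 3000 bp. The share of acetylated peaks in these 4 ranges was 16.8%, 26.2%, 51.5% and 68.7%. Score and width were nearly the same ordering within the class (Spearman's rho 0.934 over 7226 peaks of 1 library, a description without a p).

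H3K4me1 usually covered these peaks from end to end. In 5703 of 7226 (78.9%, 78 to 79.8) every base of the H3K4me3 peak lay under H3K4me1, against 55.6% of all H3K4me3 peaks that touched H3K4me1. The share was 37.5% (36.7 to 38.4) for acetylated and 68.1% (66.6 to 69.5) for bivalent peaks. H3K4me1 covered a single end of 1011 H3K27-unmarked peaks (14%), and 497 (6.88%, 6.32 to 7.48) had H3K4me1 at both ends with a gap between. In the remaining 15, H3K4me1 covered a stretch inside the H3K4me3 peak and neither end. The gap did not always lie at the centre, since H3K4me1 still covered the H3K4me3 centre in 314 of the 497 (63.2%). Over all widths, a gap between covered ends was seen in 25.5% of acetylated and 13.7% of bivalent peaks.

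The arrangement moved with the strength of H3K4me3. In the lowest quartile by score, 95.3% of 1807 H3K27-unmarked peaks were wholly covered by H3K4me1 and 0.387% had a gap between covered ends. The share was 92.5% in the second quartile and 85.2% in the next. In the highest quartile 42.7% were wholly covered and 24.3% had a gap. Among the 438 peaks that scored 3100 or more, 17.1% were wholly covered, 36.8% were covered at a single end and 44.3% had a gap. Coverage and score had a Spearman's rho of -0.467 over the 7226 peaks, and -0.669 over the acetylated peaks, again as a description. Wider peaks are less easily covered in full, and the median width was 293 bp in the lowest quartile and 1446 bp in the highest.

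**Figure D2:**
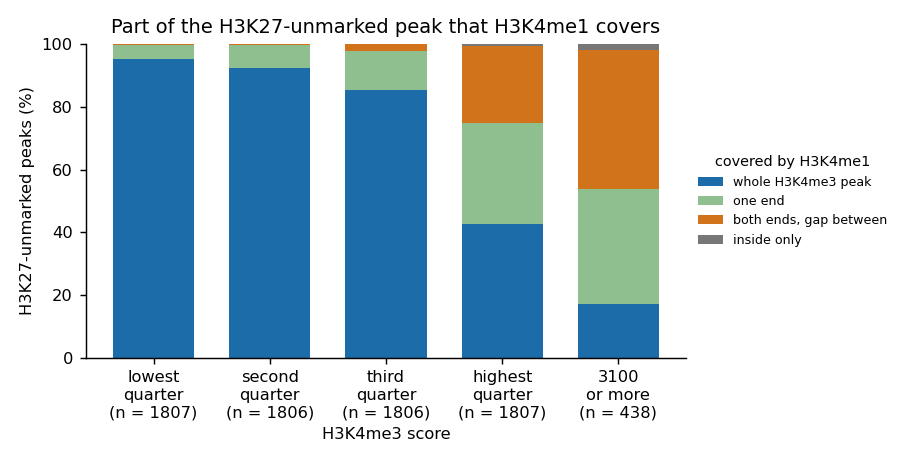
Share of H3K27-unmarked peaks (vertical axis, %) whose H3K4me3 interval is covered by H3K4me1 as a whole, at a single end, at both ends with a gap between, or inside only, for quartiles of the class by H3K4me3 score and for scores of 3100 or more. The whole-peak share goes from 95.3% in the lowest quartile to 42.7% in the highest, and the share with a gap from 0.387% to 24.3%.

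Held to a common width between 1000 and 3000 bp, H3K27-unmarked peaks were still covered in full more often than acetylated ones. Compared with bivalent peaks they were covered in full less often there, the reverse of the order over all widths. Of the H3K27-unmarked peaks 1000 to 1500 bp wide, 62.8% were wholly covered, against 28.3% of acetylated and 69.6% of bivalent peaks. From 2000 to 3000 bp the shares were 20.3%, 5.77% and 38.1%. Under 300 bp they were 93.8%, 94.6% and 88.7%, so the classes were close to each other where H3K4me3 was narrow. The gap between covered ends also changed order against bivalent peaks. At 1000 to 1500 bp it was seen in 10.9% of H3K27-unmarked, 14.6% of acetylated and 8.17% of bivalent peaks. At 2000 to 3000 bp the gap was seen in 53.8%, 61.5% and 38.9%. The bare stretch was short where there was a gap, with a median of 211 bp (interquartile range 91 to 407) inside peaks with a median width of 1661 bp.

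Seen along the chromosome, H3K4me1 formed a single mound over the weaker peaks and a saddle over the strongest. In the lowest score quartile, H3K4me1 covered 98.3% of peak centres and 55.4% and 54.7% of the positions 1 kb to the left and right. Among the peaks scoring 3100 or more it covered 66.2% of centres but 79.5% and 78.8% of positions 1 kb away. H3K27ac is at 0 inside every H3K27-unmarked peak by the rule. At 1 kb from the centre it covered 9.8% and 9.35% of positions in the lowest quartile, against 2.32% and 3.15% in the highest. The highest quartile is wide, and H3K4me3 covered 23.8% and 25% of its positions at 1 kb, partly the H3K27-unmarked peaks themselves, so the shares at 1 kb are not free of the rule. At 5 kb H3K27ac was at 3.1% and 2.99% in the lowest quartile and at 2.49% and 2.38% in the highest.

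**Figure D3:**
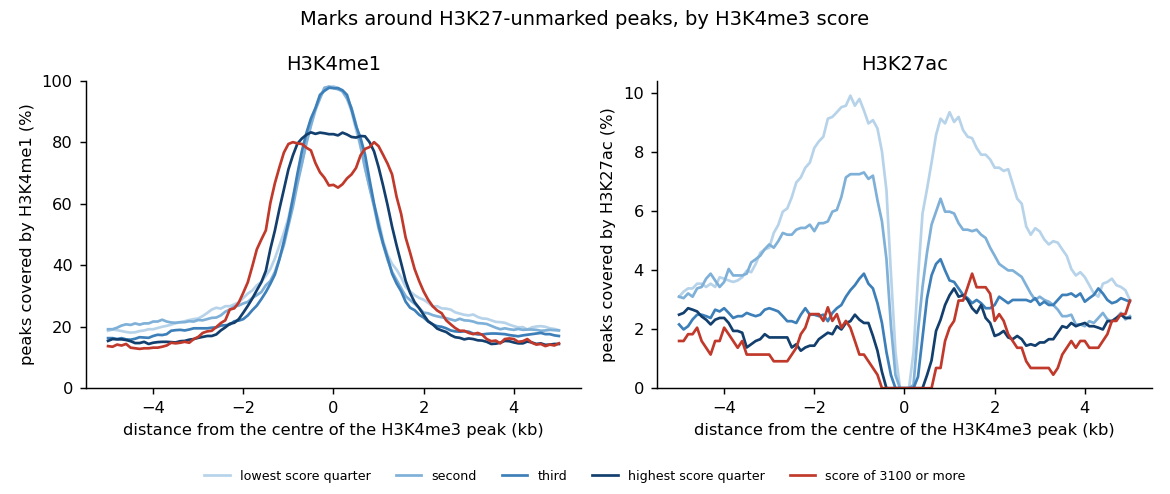
Share of H3K27-unmarked peaks (vertical axes, %) covered by H3K4me1 (left) and H3K27ac (right) at positions 100 bp apart within 5 kb of the H3K4me3 centre, for quartiles by H3K4me3 score and for scores of 3100 or more. H3K4me1 dips to 66.2% at the centre of the strongest peaks, and H3K27ac, which the rule keeps at 0 inside the peaks, reaches 9.8% at 1 kb in the lowest quartile.

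Most of these peaks lay within a broader H3K4me1 peak. Among the 5703 wholly covered ones, the H3K4me3 centre lay in the middle 50% of the H3K4me1 peak in 4805 (84.3%, 83.3 to 85.2), and the H3K4me3 peak took up a median of 25.7% of its width (interquartile range 14.9 to 42.1). A peak that takes up much of its H3K4me1 peak has its centre there by geometry, and the share that random placement would give was not computed. The median H3K4me1 flank on the shorter side was 442 bp. The class used 6891 different H3K4me1 peaks, of which 6134 (89%) held 1 H3K27-unmarked peak and 757 held more, up to 6. The strength of H3K4me1 gave no ordering of H3K4me3, since the median score of the strongest H3K4me1 peak touched was 228.6 in the lowest H3K4me3 quartile and 202.2 in the highest.

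The H3K4me1 peaks under this class were larger than those without H3K4me3. Their median width was 1899 bp and their median score 191.6, against 1462 bp and 110.3 for the 52400 H3K4me1 peaks of chromosomes 1 to 19 that touched no H3K4me3. A wide H3K4me1 peak has more room to touch H3K4me3, so this size contrast is tied to the overlap that the rule uses. H3K4me1 peaks under acetylated H3K4me3 peaks had medians of 1683 bp and 174.4, and those under bivalent peaks of 2055 bp and 204.4. Away from the H3K4me3 peak in question, 875 of the 6891 H3K4me1 peaks (12.7%, 11.9 to 13.5) touched H3K27ac and 574 (8.33%, 7.7 to 9.01) touched H3K27me3. Without H3K4me3, these shares were 18.8% and 1.03%. The comparison is not free of the rule, since H3K4me1 under this class can touch an H3K27 mark only outside the H3K27-unmarked peak. The widths of the H3K4me1 peaks differed as well. Counted over H3K27-unmarked peaks, 5658 of 7226 (78.3%, 77.3 to 79.2) lay on H3K4me1 that touched neither H3K27 mark anywhere along its length.

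H3K27ac was nevertheless close to part of the class. From edge to edge, the median distance to the nearest H3K27ac peak was 18.3 kb, with quartiles at 4.2 and 49.4 kb. It lay within 5 kb of 1933 H3K27-unmarked peaks (26.8%, 25.7 to 27.8), against 20.2% of all H3K4me3 peaks without H3K27ac. Bivalent peaks had H3K27ac within 5 kb in 8.67% (7.84 to 9.58) and solitary peaks in 21.9% (20.3 to 23.5), and their median distances were 44.7 and 34.5 kb. A distance beyond 100 kb was found for 831 H3K27-unmarked peaks (11.5%, 10.8 to 12.3), 22.7% of bivalent and 29.3% of solitary peaks. H3K27me3 lay within 5 kb of 1246 H3K27-unmarked peaks (17.2%, 16.4 to 18.1), against 4.05% of acetylated and 7.89% of solitary peaks. Over all H3K4me3 peaks the share was 23.7%, which includes the peaks that overlap H3K27me3.

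**Figure D4:**
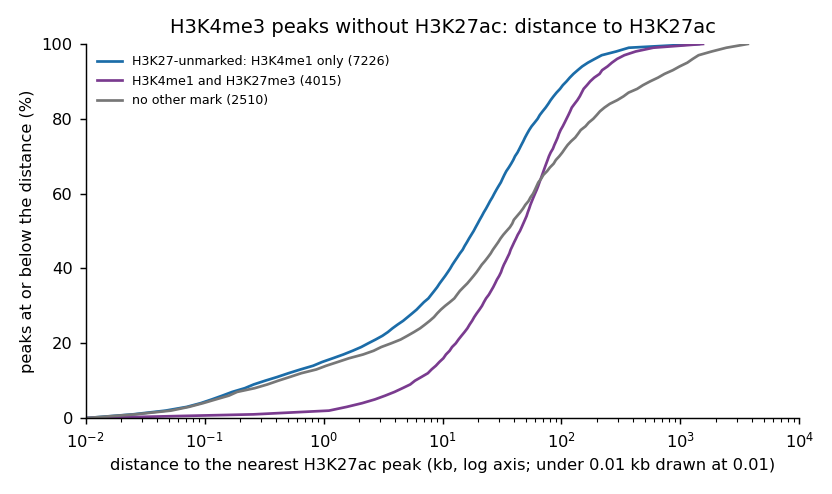
Cumulative share (vertical axis, %) of H3K4me3 peaks without H3K27ac by the distance from their edge to the nearest H3K27ac peak, in kb on a log axis, for 3 classes with the number of peaks in brackets. H3K27-unmarked peaks are closest in the middle of the range, with a median of 18.3 kb against 34.5 kb for solitary and 44.7 kb for bivalent peaks.

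The H3K27-unmarked peaks beside H3K27ac had a lower median score, although some of the strongest were among them. A wide peak next to H3K27ac would tend to overlap it and be removed by the rule, so width and score here are not independent of the selection. Within 1 kb of H3K27ac there were 1094 (15.1%), with medians of 409.5 bp for width and 123.8 for score, and 90.9% of them had another H3K4me3 peak within 2 kb. Of these 1094, 39 (3.56%) scored 3100 or more. At 1 to 5 kb the medians were 630 bp and 253.5 over 839 peaks, and at 5 to 20 kb they were 687.5 bp and 341.3 over 1844 peaks. At 20 to 100 kb, the band with the most peaks (2618), they were 666 bp and 324.2, and beyond 100 kb they were 748 bp and 382.9, with another H3K4me3 peak within 2 kb in 26.6%. The H3K4me1 peaks went the other way at long range, with a median score of 304.9 at 1 to 5 kb and 163.4 beyond 100 kb.

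Neighbouring H3K4me3 peaks were more frequent among the weaker peaks of the class. Another H3K4me3 peak lay within 2 kb of 3088 (42.7%, 41.6 to 43.9), against 50.4% of all H3K4me3 peaks, 53.3% of acetylated, 58.2% of bivalent and 33.7% of solitary peaks. From the lowest to the highest score quartile the shares were 58.3%, 47.8%, 34.4% and 30.5%. The share was 12.2% when H3K4me3 peaks scoring below the median of their list were left out, and 5.47% when H3K4me3 peaks less than 1 kb apart were joined first. Both settings also remove neighbours by construction, so these shares do not bear on the order by score. In 1677 of the 3088 the nearest neighbour met the same overlap criteria, with a median gap of 57 bp and a median width of 465 bp. Pairs of such peaks are counted from both sides, so their widths are not compared. In 952 the neighbour was an acetylated peak at a median gap of 83 bp. There the median width and score were 400 bp and 115.3 for the H3K27-unmarked peak, and 1435 bp and 3100 for the neighbour. The neighbour was the wider one in 86.1%. A wider peak is more likely to touch H3K27ac and be classed as acetylated, so this contrast is not free of the rule. In 291 the neighbour was bivalent, with median widths of 484 bp for the H3K27-unmarked peak and 1158 bp for the neighbour.

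Joining H3K4me3 peaks less than 1 kb apart showed how far the class depends on how H3K4me3 was cut into peaks. Of the 7226, 4380 (60.6%, 59.5 to 61.7) remained single. In 5847 (80.9%, 80 to 81.8) the joined region still touched H3K4me1 and no H3K27 mark, in 1084 (15%) it held H3K27ac and in 354 (4.9%) H3K27me3, with both in 59. Joined regions made of H3K27-unmarked peaks alone numbered 5041, of which 56 held 3 or more peaks. The longest runs held 6 peaks each. On chromosome 13 at 114403561 to 114408830, 6 peaks that scored 53.34 to 1630.1 covered 4.58 kb of 5.27 kb. A single H3K4me1 peak covered 4.92 kb of this run, which lay 43.7 kb from H3K27ac. On chromosome 2 at 167362774 to 167367047, 6 peaks that scored 78.6 to 250.9 covered 3.17 kb, with H3K27ac 0.361 kb and H3K27me3 1.56 kb away.

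Part of the class stood alone. The rule itself bars overlap with H3K27 marks, and how often other H3K4me3 peaks stood alone was not computed. No other H3K4me3 peak and no H3K27ac or H3K27me3 peak lay within 5 kb of 2899 H3K27-unmarked peaks (40.1%). These were 767 bp wide at the median and scored 405, while the medians were 527 bp and 203.9 for the 4327 with some such peak within 5 kb. In 77.3% of the 2899 the peak was wholly covered by H3K4me1. Among them 217 scored 3100 or more, with a median width of 2036 bp, and 50.2% of these had the gap between covered ends. The median distance of these 217 to H3K27ac was 31.5 kb. Of the 2899, 507 were beyond 100 kb of H3K27ac, with medians of 833 bp and 482.8.

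Between autosomes, the share of the class among H3K4me3 peaks varied less than its density per Mb. The class made up from 23.2% (20.9 to 25.7, chromosome 13) to 29.1% (26.8 to 31.5, chromosome 10) of the H3K4me3 peaks outside the widest 500. The median was 25.9%, and the intervals of these 2 chromosomes did not overlap. Its density ranged from 1.87 per Mb on chromosome 14 to 5.14 on chromosome 11. On chromosome 13 a lower share, 69.3%, was wholly covered by H3K4me1, against 76.6% to 83.3% on the other autosomes. Of 2482 bins of 1 Mb, 826 held none, and 179 bins with 10 or more held 2473 of the peaks (34.2%). The same bin counts were not made for all H3K4me3 peaks, so they do not show clustering particular to the class. The fullest bin was chromosome 10 from 80 to 81 Mb, with 39 H3K27-unmarked peaks of 114 H3K4me3 peaks. It was followed by the bin before it, with 31 of 122.

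Many scores stop at 3100, so listed scores above it are not known to mark stronger H3K4me3. The 10 peaks with the highest scores, 3215.6 to 3227, were 1.36 to 2.36 kb wide. H3K4me1 covered 1 of them entirely, 4 at both ends with a gap between and 5 at a single end. They fell into 5 within 5 kb of H3K27ac and 5 beyond 10 kb. The highest listed score, 3227, was that of a peak on chromosome 12 at 25516382 to 25517743. It was 72.2% covered by H3K4me1 and lay 0.161 kb from H3K27ac and 0.079 kb from an acetylated H3K4me3 peak. The next, on chromosome 7 at 99890177 to 99892105, was wholly covered and lay 0.042 kb from H3K27ac. In contrast, the peak on chromosome 1 at 67084535 to 67085903 scored 3218.4, had H3K4me1 at both ends and lay 35.1 kb from H3K27ac and 174 kb from any other H3K4me3 peak. The peak on chromosome 16 at 31079918 to 31081611 scored 3224 and lay 66.8 kb from H3K27ac and 346 kb from H3K27me3.

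The 5 widest peaks, 3.15 to 3.29 kb, each scored 3100. The widest, on chromosome 19 at 28751962 to 28755248, lay under H3K4me1 peaks that covered 89% of it at both ends, 25.5 kb from H3K27ac and 154 kb from the next H3K4me3 peak. On chromosome 13 at 21366570 to 21369807, H3K4me1 covered a single end and 38.5% of a 3.24 kb peak that lay 73.9 kb from H3K27ac. On chromosome 1 at 172963111 to 172966256, a 3.15 kb peak was wholly covered by H3K4me1 and lay 0.156 kb from an acetylated H3K4me3 peak.

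The 5 peaks farthest from H3K27ac, at 821 to 1428 kb, were all wholly covered by H3K4me1, whose scores there were 118 to 309.9. The farthest, on chromosome 2 at 177876795 to 177877251, was 0.457 kb wide with a score of 127.2, and H3K27me3 lay 1.66 kb away. The second, on chromosome 8 at 61390606 to 61392451, was 1.85 kb wide, scored 1566.1 and lay 884 kb from both H3K27ac and H3K27me3 and 1111 kb from any other H3K4me3 peak.

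The 5 peaks on the strongest H3K4me1 ranged widely in H3K4me3. Their H3K4me1 scores were 2017 to 2296 and their H3K4me1 peaks 7.73 to 11.1 kb wide, while the H3K4me3 scores ran from 52.17 to 2753.4. H3K27ac lay within 5 kb of 4 of the 5. On chromosome 2 at 119624720 to 119626651, H3K4me3 scored 2753.4 over 1.93 kb with H3K27ac 1.21 kb away. On chromosome 5 at 125636592 to 125636820, a peak of 0.229 kb that scored 53.41 lay on an H3K4me1 peak of 11.1 kb, 0.563 kb from H3K27ac.

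**Figure D5:**
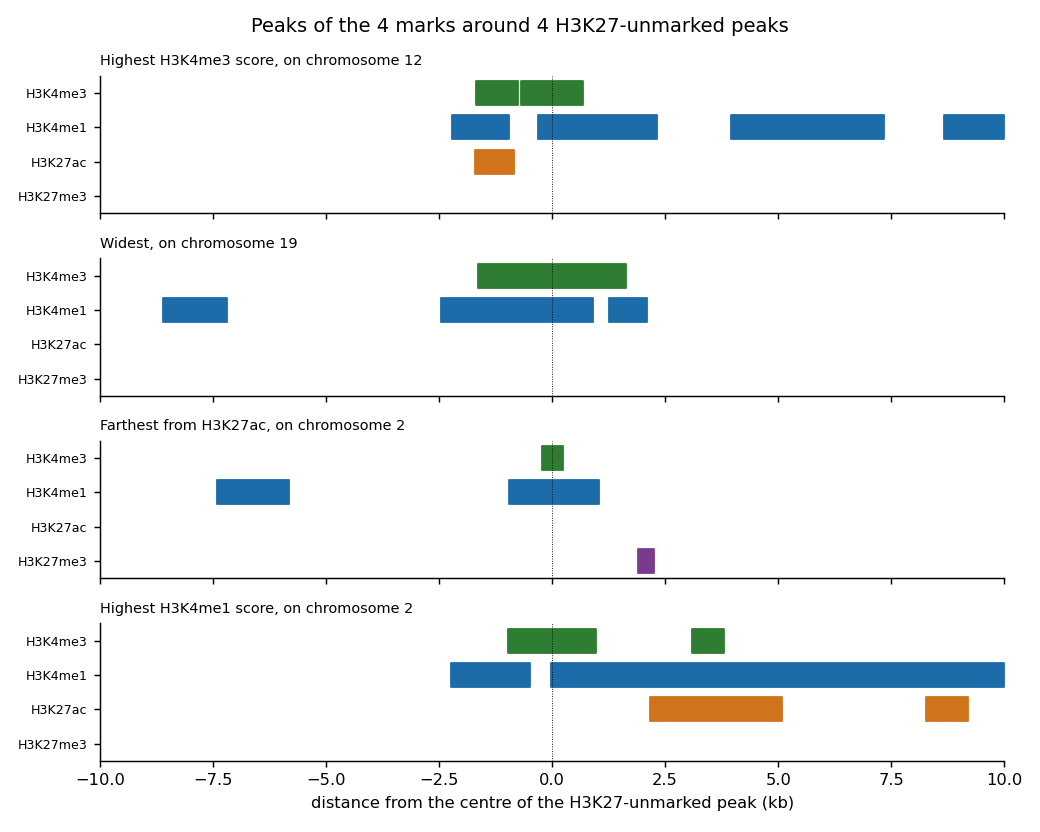
Peak intervals of the 4 marks within 10 kb of the centre of an H3K27-unmarked peak (dotted line; horizontal axis in kb), for the peak with the highest score, the widest, the one farthest from H3K27ac and the one on the strongest H3K4me1. H3K27ac lies 0.161 kb and 1.21 kb from the edges of the first and last of these peaks, and no H3K27ac peak lies within 10 kb of the other 2.

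Peaks just inside and just outside each limit of the rule are given here as a description. On the width limit, the last 3 peaks left out with the same overlaps were 3403 to 3441 bp wide, and the first 3 kept were 3238 to 3287 bp, all with scores of 3100. Only 35 H3K27-unmarked peaks (0.484%) shared 50 bp or less with H3K4me1, the least being 1 bp for a peak on chromosome 12 at 3428455 to 3428946 that scored 196.94. Among solitary peaks 64 lay less than 100 bp from H3K4me1, the nearest with 1 bp between them. An H3K27 mark lay within 100 bp of 441 H3K27-unmarked peaks (6.1%), in some cases touching without a shared base. Of 16162 peaks with H3K4me1 and an H3K27 mark, 178 (1.1%) shared at most 50 bp with the latter.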

How the data were processed

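The authors deposited lists of scored peak intervals (mm9) for 4 histone marks, 1 library each, in a series of 5 samples. The score has no stated scale and served to rank peaks within a list. The submitters' processing notes name Bowtie 0.12.9, MACS 1.4 and Cufflinks without role or order. Not given in the sources used here are the control, threshold, duplicate handling and read totals, so depth is unknown, and a deeper library lists more and wider peaks.

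Intervals sharing at least 1 bp overlapped. Distances run between edges, with 0 for touching peaks, and coverage is by merged peaks. A run of H3K4me3 peaks near the start of chromosome 11 was not ranked by width and holds 0 H3K27-unmarked peaks. Its peaks stayed among the compared classes whatever their width, and the widest solitary peak was 8018 bp. Shares carry 95% Wilson intervals. Computation used Python 3.11.15, numpy 2.4.6, pandas 2.3.3, scipy 1.17.1 and matplotlib 3.10.9. Overlap, coverage, distance and joining were tested on simulated data against direct counting.

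The class, thresholds and comparisons were chosen with earlier results of these data known. Peaks named are the 10 highest scoring, the 5 widest, the 5 farthest from H3K27ac, the 5 on the strongest H3K4me1 and 3 on each side of each limit. Runs, bins, score quartiles, distance bands and width ranges came later, after the data had been seen. The gene table at hand is of another build, so gene starts, gene names, epiblast and feeder markers, and sequences were not analysed here; the part of feeder chromatin was not tested.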

Additional observations from a re-analysis of the deposited data

How the results depend on the processing

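The count and 3 shares were recomputed under 8 alternatives; the share at gene starts was not run, and there was no replicate to leave out. No paired analysis was possible because each mark has 1 library. The count of 7226 stayed within 1.5 times under 7 of them (5117 to 9999) and was 2094 with H3K4me3 peaks at or above the median score. That setting also gave 47.7% wholly covered by H3K4me1, 12.2% within 2 kb of another H3K4me3 peak and 20.5% within 5 kb of H3K27ac. With H3K4me1 at or above its median score these shares were 84.3%, 45.2% and 28.2%. With H3K27 peaks at or above their median scores, 72.2% were wholly covered and 18.8% lay within 5 kb of H3K27ac. Without H3K27 marks within 1 kb, 31.8% had another H3K4me3 peak within 2 kb and 14.3% had H3K27ac within 5 kb. With H3K4me3 joined within 1 kb, 75.2% were wholly covered, 5.47% had another H3K4me3 within 2 kb and 14.2% had H3K27ac within 5 kb. Joining removes near H3K4me3 neighbours, and the 1 kb limit removes near H3K27ac, by construction. Leaving out H3K4me3 peaks below the median score likewise takes away neighbours. Leaving out H3K27 peaks below it takes H3K27ac peaks away. At least 50% coverage by H3K4me1 gave 81.8% wholly covered, a setting that drops only peaks not wholly covered. Keeping the 500 widest or adding X and Y moved no share beyond its interval. Elsewhere the cause was not tested. Unknown depth limits every statement that a mark is not listed.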

Other observations

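The same overlaps outside the rule's limits were less frequent. Among the 500 widest H3K4me3 peaks, 15 (3%) touched H3K4me1 and no H3K27 mark. On the X chromosome 68 of 971 H3K4me3 peaks (7%) did so.

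Runs of H3K27-unmarked peaks below the longest were ranked by number of peaks and then by span, and not all are given. The next 3 held 4 peaks each, every run under a single H3K4me1 peak. They lay on chromosome 10 at 80269587 to 80273418, in the fullest bin of 1 Mb, on chromosome 9 at 44848563 to 44851962 and on chromosome 1 at 75453371 to 75456098. Their H3K4me3 scores ranged from 90.24 to 858, from 52.29 to 863.3 and from 53.09 to 467.1, and H3K27ac lay 6.92, 10.5 and 18.8 kb away.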
